A study of Mus musculus with 10 samples.

Results

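The lysosomal genes described here encode the acid hydrolases that break down sugar chains, sulfated polysaccharides, lipids and peptides, the small proteins that assist them, the proteins of the lysosomal membrane, and 2 genes of sorting and regulation, Sort1 and Tfeb. They were taken by name: 35 gene symbols were listed, and a gene was measured where a probe set carried that symbol and no other. In all, 34 of the 35 were measured, of 14860 genes with such a probe set, and a gene with several was represented by its brightest. Sort1 was not analysed here. The list was drawn up with earlier results of these data known, so its counts are given as a description beside those of all probe sets.

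RNA from the livers of male Balb/c mice was hybridised to Affymetrix whole-transcript arrays, with 5 arrays from mice given carbon tetrachloride (CCl4) for 6 weeks and 5 from control mice given oil for 6 weeks. The mice were obtained at 8 weeks of age and acclimatised before treatment. CCl4 is a liver toxin that, given repeatedly, produces fibrosis, and the oil mice differed from the CCl4 mice, as far as the labels say, only in not receiving it. The arrays were labelled as biological replicates 1 to 5 of each group. The RNA came from whole liver, so a gene can read higher either because more cells of a type are present or because each cell holds more of its RNA, and these cannot be told apart. Array medians lay between 2.54 and 2.66 on the log2 scale, and the correlation between arrays across probe sets lay between 0.959 and 0.990. Hepatocyte markers were bright in both groups, with albumin (Alb) at 13.04 ± 0.07 in CCl4 and 13.06 ± 0.11 in oil livers (mean log2 value ± SD, n = 5 each).

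The lysosome is the acidic compartment in which cells digest material taken up from outside and delivered by autophagy. Most of its hydrolases receive a mannose phosphate tag in the Golgi that sorts them to it, and their inherited loss causes storage diseases in which undigested substrate collects in cells. In the liver, hepatocytes hold lysosomes that handle glycogen, lipoproteins and autophagic cargo, while macrophages are rich in lysosomes that digest engulfed debris. The transcription factor TFEB is known to activate many lysosomal genes together through a short promoter element, the CLEAR element, whose core is CACGTG.

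The promoter element is shown first because the genes were grouped by it below. Promoters running from 250 bases before to 50 bases after a start were taken from RefSeq on mouse build GRCm38.p6, and 31 of the 35 genes had one. The core CACGTG reads the same on both strands, and it was found in 9 of the 31 genes (29.0%) against 8.09% of 27025 genes with a promoter. The longer TCACGTGA, which contains the core and also reads the same on both strands, was found in 3 genes (9.68%) against 1.12%. The promoters of the lysosomal genes had a median GC content of 56.67%, against 52.67% over all promoters. The windows around TCACGTGA in these 3 genes are printed from 5′ to 3′ on the gene's strand, with the matches in capitals.
Cln3, chr7:126583325-126583384, minus strand: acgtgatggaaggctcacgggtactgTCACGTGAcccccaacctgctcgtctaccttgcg
Mcoln1, chr8:3500447-3500506, plus strand: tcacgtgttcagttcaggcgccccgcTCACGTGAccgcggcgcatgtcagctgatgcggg
Gla, chrX:134601167-134601255, minus strand: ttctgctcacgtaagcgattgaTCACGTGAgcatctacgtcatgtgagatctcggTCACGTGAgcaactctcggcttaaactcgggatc
The match began 122 bases before the start in Cln3 and 46 bases before it in Mcoln1, while Gla held a pair of matches, 228 and 195 bases before its start. The other 6 genes with the core alone were Arsa, Gaa, Glb1, Lamp1, Naglu and Sgsh, and Lamp1 held 4 copies of it, at 61, 45, 28 and 15 bases before the start. A match is a run of letters and not a measured binding site.

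Of the 34 measured genes, 3 were higher in CCl4 livers and 0 were lower (limma, adjusted p under 0.05 after Benjamini-Hochberg adjustment over all 23332 probe sets). The 3 were Laptm5, a lysosomal membrane protein made mainly in leukocytes, Psap, the precursor of the saposins that present sphingolipids to their hydrolases, and Galns, a sulfatase of keratan and chondroitin sulfate breakdown. They were 8.82% of the measured genes, against 0.630% of all probe sets called higher and 0.0900% called lower. All 34 genes were brighter than the median probe set, and among probe sets above that median the shares called were 1.21% and 0.180%. In 7 of the 34 (20.6%) every CCl4 array lay above every oil array, and in 0 every CCl4 array lay below, against 2.73% and 1.16% of all probe sets and 4.08% and 1.90% of those above the median brightness. At an unadjusted p under 0.05, 13 genes were higher and 1 was lower, with 7.03% and 4.27% of all probe sets. The fold change was positive in 23 genes and negative in 11, with a median log2 fold change (CCl4 minus oil) of 0.11, against 0.01 over all probe sets.

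The calls depended on single arrays. Without any one of CCl4 replicates 1 to 4 or without oil replicate 4, 1 gene was called, Galns in each case, while without CCl4 replicate 5 there were 5 (Hexa and Gusb besides the 3) and without oil replicate 1, 2, 3 or 5 there were 0. All 3 fold changes kept their direction in each of these fits, with adjusted p of 0.0245 to 0.0821 for Galns, 0.00678 to 0.123 for Psap and 0.00139 to 0.114 for Laptm5.

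**Figure D1:**
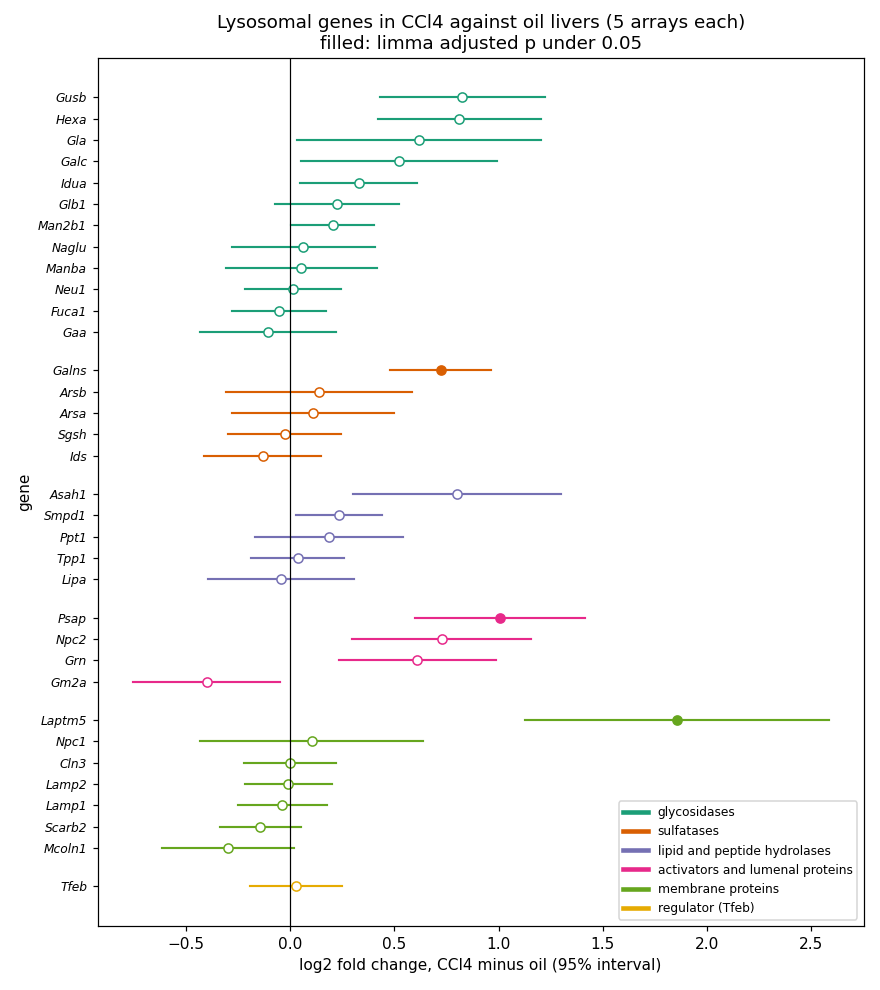
Log2 fold change, CCl4 minus oil (x axis), with its 95% interval for each of the 34 lysosomal genes, grouped by role; filled points passed limma's adjusted p under 0.05. Galns, Psap and Laptm5 are filled, and the estimates run from -0.40 in Gm2a to 1.86 in Laptm5.

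Among the 4 activators and lumenal proteins, 1 was called higher, and the median log2 fold change was 0.67. Psap read 10.26, 10.58, 9.92, 10.56 and 9.59 in CCl4 replicates 1 to 5 and 9.05, 9.29, 9.31, 9.11 and 9.11 in oil replicates 1 to 5 (log2 values). The groups did not overlap, the lowest CCl4 array lay 0.28 above the highest oil array, and the oil arrays were tightly spaced. The log2 fold change was 1.01 ± 0.18 (SE; 95% interval 0.60 to 1.41; limma adjusted p = 0.0410), which is 2.01-fold. Grn encodes progranulin, a secreted and lysosomal protein that is cut into granulins. Its log2 values were 8.83, 9.38, 8.97, 9.73 and 9.02 in CCl4 and 8.45, 8.69, 8.82, 8.37 and 8.54 in oil livers. The groups only just separated, with a gap of 0.0066, and the log2 fold change of 0.61 ± 0.17 did not pass the test (adjusted p = 0.157). Npc2, the lumenal cholesterol carrier, had a log2 fold change of 0.73 ± 0.19 (adjusted p = 0.139). Its groups overlapped through oil replicate 4, at 7.20, which lay above CCl4 replicates 3 and 5 at 7.09 and 7.04. Gm2a, the ganglioside activator that works with β-hexosaminidase, read 9.70, 9.72, 9.83, 9.20 and 9.62 in CCl4 and 9.66, 9.77, 10.34, 10.17 and 10.15 in oil livers. Its log2 fold change was -0.40 ± 0.16 (95% interval -0.76 to -0.05), the lowest of the 34 and the only negative one that passed before adjustment (limma adjusted p = 0.367). Oil replicates 1 and 2 lay within the CCl4 range, and the other 3 oil arrays lay above it.

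Among the 7 membrane proteins, 1 was called higher, and the median log2 fold change was -0.01. Laptm5 read 8.16, 8.22, 7.51, 7.74 and 6.28 in CCl4 and 5.35, 5.98, 5.80, 5.85 and 5.64 in oil livers. CCl4 replicate 5 stood lowest of its group and 0.29 above the highest oil array. The log2 fold change was 1.86 ± 0.33 (95% interval 1.13 to 2.58; adjusted p = 0.0364), 3.62-fold and the largest of the 34. The most abundant structural proteins of the lysosomal membrane gave a different picture. Lamp1 read 9.87, 9.95, 9.95, 9.81 and 9.99 in CCl4 and 9.68, 10.01, 10.16, 10.03 and 9.88 in oil livers. Lamp2, which also serves chaperone-mediated autophagy through one of its splice forms, read 10.77, 10.76, 10.68, 10.92 and 10.75 in CCl4 and 10.63, 10.68, 10.93, 11.003 and 10.70 in oil livers. In both genes the CCl4 arrays fell inside the oil range. The log2 fold change was -0.04 for Lamp1 (95% interval -0.25 to 0.18) and -0.01 for Lamp2 (95% interval -0.22 to 0.20). Npc1, the membrane partner of Npc2 in cholesterol export, read 7.62, 7.58, 7.23, 8.71 and 7.50 in CCl4 and 7.85, 7.74, 7.56, 7.58 and 7.38 in oil livers. CCl4 replicate 4 stood far above the other 9 arrays, and the log2 fold change was 0.10 (95% interval -0.43 to 0.64) with all arrays and -0.14 without that array. Mcoln1, the calcium channel of the lysosomal membrane, read 6.84, 6.88, 6.79, 6.71 and 6.98 in CCl4 and 7.31, 7.62, 6.87, 6.93 and 6.97 in oil livers. Its log2 fold change of -0.30 (95% interval -0.62 to 0.02; adjusted p = 0.476) came with oil replicates 1 and 2 above all other arrays. Scarb2, the carrier of glucocerebrosidase, and Cln3, a membrane protein lost in a neuronal storage disease, had log2 fold changes of -0.14 (95% interval -0.34 to 0.05) and -0.00 (95% interval -0.22 to 0.22).

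**Figure D2:**
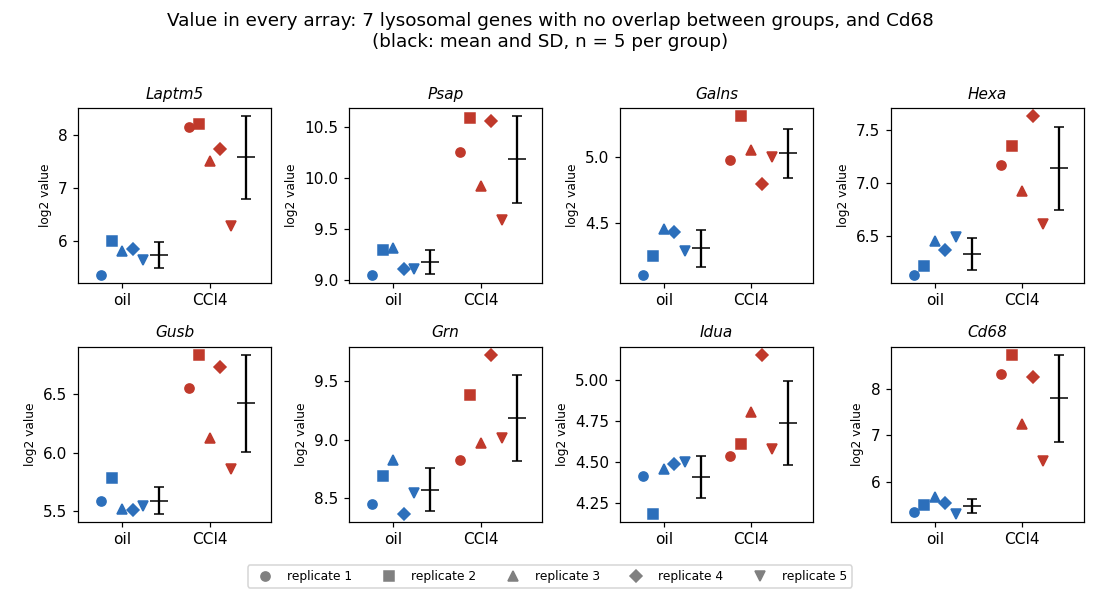
Log2 value in every array (y axis) for the 7 lysosomal genes whose groups did not overlap and for Cd68, a lysosomal membrane protein of macrophages; blue marks oil, red marks CCl4, marker shape gives the replicate number, and black marks give mean and SD (n = 5). CCl4 replicate 5 is the lowest CCl4 array in Laptm5 (6.28), Psap (9.59), Hexa (6.61), Gusb (5.86) and Cd68 (6.45).

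Among the 5 sulfatases, enzymes that remove sulfate from glycosaminoglycans and sulfolipids, 1 was called higher and the median log2 fold change was 0.11. Galns read 4.98, 5.32, 5.06, 4.80 and 5.002 in CCl4 and 4.11, 4.25, 4.46, 4.43 and 4.29 in oil livers. The gap between the groups was 0.34, the widest of the 34 genes, and the log2 fold change was 0.72 ± 0.11 (95% interval 0.48 to 0.97; adjusted p = 0.0228), 1.65-fold. The other 4 had overlapping groups and adjusted p of 0.790 or more. They were Arsb at 0.14, Arsa at 0.11, Sgsh at -0.03 and Ids at -0.13 (log2 fold change), which act on dermatan sulfate, sulfatide, and heparan sulfate (Sgsh and Ids, with Ids also on dermatan sulfate). A second, dimmer probe set of Arsb had a log2 fold change of 0.28.

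None of the 12 glycosidases, which clip sugars from the ends of glycolipids, glycoproteins and glycosaminoglycans, was called, and their median log2 fold change was 0.21. In 3 of them the groups did not overlap. Hexa, the alpha subunit of β-hexosaminidase, read 7.17, 7.35, 6.93, 7.64 and 6.61 in CCl4 and 6.13, 6.21, 6.45, 6.36 and 6.49 in oil livers. Gusb, β-glucuronidase, read 6.55, 6.83, 6.12, 6.73 and 5.86 in CCl4 and 5.59, 5.78, 5.52, 5.51 and 5.55 in oil livers. In both genes CCl4 replicate 5 lay nearest to the oil arrays. The log2 fold changes were 0.81 ± 0.18 for Hexa and 0.83 ± 0.18 for Gusb, each with an adjusted p of 0.0729. Over 19 alternatives, Hexa passed in 3 and Gusb in 2, with adjusted p of 0.0185 to 0.188 for Hexa and 0.0152 to 0.188 for Gusb. These leave out the methods' t-test without adjustment, whose rule both genes met. Idua, which removes iduronic acid from heparan and dermatan sulfate, read 4.54, 4.61, 4.80, 5.16 and 4.58 in CCl4 and 4.41, 4.19, 4.46, 4.49 and 4.50 in oil livers. Its groups separated by 0.037, with a log2 fold change of 0.33 ± 0.13 (adjusted p = 0.342).

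Gla, the α-galactosidase that is lost in Fabry disease, had the next highest estimate of the glycosidases, 0.62 ± 0.26 (adjusted p = 0.410). It read 4.52, 5.08, 3.90, 4.09 and 3.65 in CCl4 and 3.16, 3.53, 4.01, 3.92 and 3.54 in oil livers, and CCl4 replicates 1 and 2 alone lay well above the oil arrays. Galc, the galactosylceramidase of myelin lipid breakdown, had a log2 fold change of 0.52 ± 0.21 (adjusted p = 0.378), with its highest value in CCl4 replicate 4 at 4.10. Man2b1, the α-mannosidase, and Glb1, the β-galactosidase, had log2 fold changes of 0.20 and 0.22. The remaining 5 lay near 0. These were Naglu at 0.06, Manba at 0.05, Neu1 at 0.02, Fuca1 at -0.05 and Gaa, the glycogen-degrading acid α-glucosidase, at -0.11, with 95% intervals that all lay within -0.43 and 0.42.

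None of the 5 lipid and peptide hydrolases was called, and in 0 of them did the groups separate; the median log2 fold change was 0.19. Asah1, the acid ceramidase, had the highest estimate. It read 6.41, 6.86, 5.84, 6.31 and 5.99 in CCl4 and 5.23, 5.14, 5.66, 6.08 and 5.29 in oil livers, so that oil replicate 4 alone reached into the CCl4 range. The log2 fold change was 0.80 ± 0.22 (95% interval 0.30 to 1.30; adjusted p = 0.159). Smpd1, the acid sphingomyelinase, which makes the ceramide that Asah1 cleaves, had a log2 fold change of 0.24 ± 0.09 (adjusted p = 0.358). Ppt1, which removes palmitate from proteins, had a log2 fold change of 0.19, and a second, dim probe set of it had -0.08. Tpp1, a peptidase, had 0.04 (95% interval -0.19 to 0.26). Lipa, the acid lipase that frees cholesterol and fatty acids from lipoprotein lipids, had -0.04 (95% interval -0.39 to 0.30). It read 10.36, 10.49, 10.47, 9.95 and 10.39 in CCl4 and 9.91, 10.25, 10.63, 10.59 and 10.49 in oil livers, with CCl4 replicate 4 and oil replicate 1 lowest in their groups.

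Of the 31 genes not called, the lowest adjusted p was 0.0729. For 17 of the 34 genes the 95% interval of the log2 fold change lay wholly within 0.5 of 0, and it did in 46.8% of the probe sets above the median brightness. By the rule in the study's methods, an unadjusted p under 0.05 with a fold above 1.6, 7 genes were higher (Laptm5, Psap, Gusb, Hexa, Asah1, Npc2 and Galns) and 0 were lower, against 2.34% and 0.664% of all probe sets.

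Tfeb, the transcription factor of the CLEAR element, read 3.30, 3.39, 3.44, 3.31 and 3.36 in CCl4 and 3.20, 3.53, 3.27, 3.56 and 3.11 in oil livers. Every CCl4 array fell inside the oil range, and the log2 fold change was 0.03 (95% interval -0.19 to 0.25). The 9 genes with CACGTG in their promoter had a median log2 fold change of -0.00 and a range of -0.30 (Mcoln1) to 0.62 (Gla), and in 0 of them did the groups separate. The 22 measured genes whose promoter lacked it had a median of 0.16 and a range of -0.40 to 1.86, and 6 of them separated. Every CCl4 array lay above every oil array in 2.73% of all probe sets and 4.08% of those above the median brightness. Among 9 genes, a count of 0 cannot be told apart from these shares, and the contrast between these groups of genes was not tested. Both called genes with a promoter entry, Psap and Laptm5, were among the 22. Their promoters are printed because they carried the larger changes, in lower case before the start and in capitals for the 50 bases from it, and for Psap the upstream of the listed starts is shown.
Psap, chr10:60277378-60277677, plus strand: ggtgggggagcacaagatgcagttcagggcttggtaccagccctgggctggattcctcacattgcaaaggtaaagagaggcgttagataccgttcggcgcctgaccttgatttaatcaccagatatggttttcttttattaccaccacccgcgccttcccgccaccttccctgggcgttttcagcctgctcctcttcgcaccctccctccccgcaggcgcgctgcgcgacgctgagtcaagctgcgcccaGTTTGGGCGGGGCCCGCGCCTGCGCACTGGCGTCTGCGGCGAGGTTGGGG
Laptm5, chr4:130913066-130913365, plus strand: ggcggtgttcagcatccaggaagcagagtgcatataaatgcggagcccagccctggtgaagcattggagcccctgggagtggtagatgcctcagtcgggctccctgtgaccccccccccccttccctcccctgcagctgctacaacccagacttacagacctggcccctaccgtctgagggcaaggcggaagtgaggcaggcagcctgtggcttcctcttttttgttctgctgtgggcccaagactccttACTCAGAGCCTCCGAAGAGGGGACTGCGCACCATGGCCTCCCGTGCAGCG
These letters hold no CACGTG in the window, which says nothing about TFEB at these genes.

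Of a further list of 15 genes of the TFEB family and its control by the mTORC1 kinase, 10 were measured. Among these 10, 0 were called, and the median log2 fold change was 0.19. In 3 of them every CCl4 array lay above every oil array, against 2.73% of all probe sets and 4.08% of those above the median brightness. Mitf, a relative of Tfeb, read 4.02, 4.10, 3.69, 4.30 and 3.76 in CCl4 and 3.44, 3.38, 3.56, 3.49 and 3.24 in oil livers (log2 fold change 0.55 ± 0.12; adjusted p = 0.0833). Tfe3, another relative, and Rragd, a GTPase that recruits mTORC1 to the lysosome, had log2 fold changes of 0.43 ± 0.11 (adjusted p = 0.130) and 0.57 ± 0.14 (adjusted p = 0.111). The Rragd probe set was dimmer than the median, with mean log2 values of 2.44 in CCl4 and 1.87 in oil livers. The kinase gene itself, Mtor, was at -0.18 (adjusted p = 0.513).

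**Figure D3:**
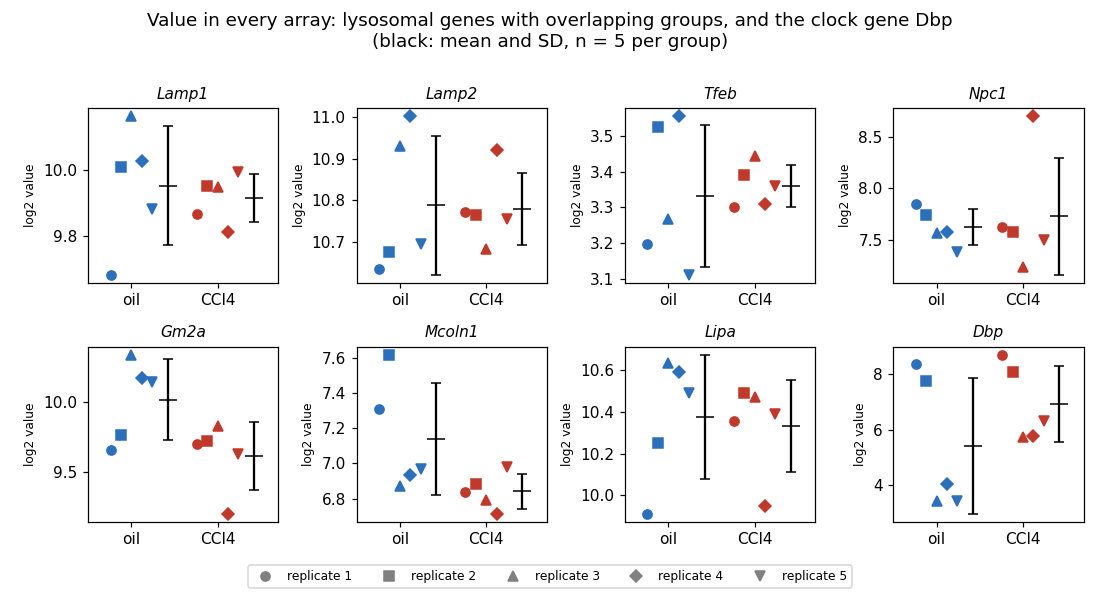
Log2 value in every array (y axis) for 7 lysosomal genes whose groups overlapped and for the clock gene Dbp; blue marks oil, red marks CCl4, marker shape gives the replicate number, and black marks give mean and SD (n = 5). Lamp1, Lamp2 and Tfeb CCl4 arrays fall inside the oil range, CCl4 replicate 4 stands at 8.71 in Npc1, and oil replicates 1 and 2 stand apart in Mcoln1, Gm2a and Dbp.

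The arrays of a group did not move alike. Averaged over the 34 genes, the deviation from the oil mean was 0.31, 0.46, 0.19, 0.26 and 0.10 in CCl4 replicates 1 to 5 and -0.14, -0.04, 0.11, 0.09 and -0.01 in oil replicates 1 to 5. CCl4 replicates 3 and 5 thus stood closest to the oil arrays, with replicate 5 just below the highest of them. CCl4 replicate 2 was the highest CCl4 array in 14 genes. CCl4 replicate 4 was the most extreme array, lowest of its group in 15 genes and highest in 8. Among the oil arrays, replicate 1 was lowest in 17 genes and replicate 3 was highest in 13. The SD was larger in CCl4 than in oil livers in 20 of the 34 genes, and it was so in 57.4% of all probe sets and in 60.5% of those above the median brightness.

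**Figure D4:**
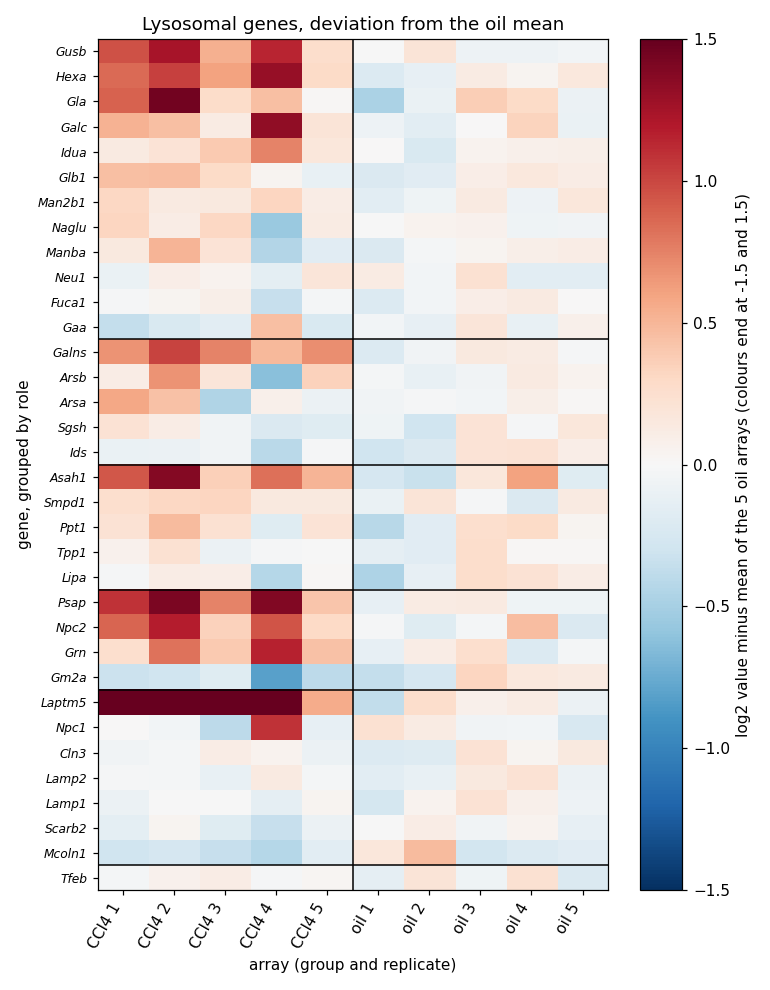
Log2 value of each of the 34 lysosomal genes (rows, grouped by role) in each of the 10 arrays (columns), as the deviation from the mean of the 5 oil arrays. Red marks values above and blue marks values below the oil mean; Laptm5 and Psap are red in all 5 CCl4 columns, and CCl4 replicate 4 is the lowest of the CCl4 columns in 15 genes.

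Oil replicates 1 and 2, which stood apart in Mcoln1 and Gm2a, also differed from the other oil arrays in the circadian genes. Dbp, an output gene of the circadian clock, read 8.72, 8.08, 5.74, 5.76 and 6.31 in CCl4 and 8.39, 7.77, 3.43, 4.04 and 3.42 in oil livers. Replicates 1 and 2 of both groups were the high arrays, and among the other 6 the CCl4 arrays lay above the oil arrays. With Dbp minus Arntl, a measure of clock phase, as a covariate, 0 lysosomal genes were called, and the adjusted p were 0.0509 for Galns, 0.0915 for Psap and 0.0870 for Laptm5. In the whole table that fit called 45 probe sets higher, against 147 without the covariate.

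Markers of some other cell types, but not of all, also differed between the groups. Of 12 macrophage markers 10 were measured, and all 10 had a positive fold change, with a median log2 fold change of 1.14. In this list 1 was called (Cybb, the NADPH oxidase subunit, at 2.36 ± 0.35; adjusted p = 0.0217) and 5 did not overlap between groups. Over all probe sets, 0.630% were called higher, and in 2.73% every CCl4 array lay above every oil array. The mean log2 value of the macrophage markers was 5.10, 5.79, 4.55, 5.23 and 4.19 in CCl4 and 3.39, 3.63, 3.74, 4.06 and 3.58 in oil livers. These means did not overlap between groups, and CCl4 replicate 5 was the lowest CCl4 array. Of the 7 separated lysosomal genes, Laptm5, Psap, Hexa and Gusb were also lowest in CCl4 replicate 5, Galns was lowest in replicate 4, and Grn and Idua were lowest in replicate 1. The neutrophil and the general leukocyte and lymphocyte lists also had their lowest CCl4 mean in replicate 5, at 1.94 and 2.17. Stellate cell markers had it in replicate 3, at 5.90, and hepatocyte markers in replicate 2, at 11.58. Kupffer cell and endothelial markers had it in replicate 1, at 5.05 and 5.87. Cd14, the endotoxin co-receptor, and Ccr2, the monocyte chemokine receptor, separated with log2 fold changes of 2.68 (adjusted p = 0.0749) and 1.71 (adjusted p = 0.0743), and Adgre1, which encodes F4/80, had a log2 fold change of 1.29 (adjusted p = 0.119). The macrophage markers were not raised alike, and the lowest were Mrc1 at 0.21 (limma adjusted p = 0.824) and Aif1 at 0.04 (limma adjusted p = 0.960). The 5 markers of resident Kupffer cells had a median log2 fold change of -0.04, with 0 called and list means of 5.05 to 5.86 in CCl4 and 5.18 to 5.67 in oil livers. Of 8 measured general leukocyte and lymphocyte markers 0 were called (median 0.02, list means 2.17 to 2.40 against 1.97 to 2.20). In 4 of the 8 the fold change was positive, and Ptprc, the pan-leukocyte CD45, was at 1.29 ± 0.30 (limma adjusted p = 0.0960). The negative ones were Cd3e at -0.07, Cd3d at -0.14, Cd4 at -0.35 and Cd8a at -0.04. Of 8 stellate cell and myofibroblast markers 5 were called higher, namely Col1a1, Col1a2, Col3a1, Pdgfrb and Vim, and these 5 also did not overlap between groups. The list means were 5.90 to 7.26 in CCl4 and 4.32 to 5.08 in oil livers. Neutrophil markers (5 measured, median 0.54), endothelial markers (5, median 0.41) and hepatocyte markers (5, median 0.11) had 0 called. Groups did not overlap in 2 of the neutrophil markers, and in 0 of the endothelial, hepatocyte, Kupffer cell and general leukocyte and lymphocyte markers. The part of these cells in the lysosomal results was not tested.

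The wider lysosomal gene set was read from lists of the remaining genes. Over all probe sets, 0.630% were called higher and 0.0900% lower, and the groups separated upward in 2.73% and downward in 1.16%. Of 17 other lysosomal hydrolases 1 was called higher and 0 lower, with a median log2 fold change of 0.10. It was Man2b2, an α-mannosidase, which read 7.46, 7.37, 7.06, 7.08 and 7.28 in CCl4 and 6.64, 6.61, 6.81, 6.61 and 6.80 in oil livers (log2 fold change 0.56 ± 0.10; adjusted p = 0.0364). Pld3, a lysosomal nuclease, also separated (1.01 ± 0.22; adjusted p = 0.0804). Of 20 other lysosomal membrane proteins 1 was called higher and 0 lower, with a median of -0.03. It was Cd68, which read 8.32, 8.73, 7.25, 8.25 and 6.45 in CCl4 and 5.36, 5.51, 5.67, 5.56 and 5.32 in oil livers (log2 fold change 2.31 ± 0.38; adjusted p = 0.0276). Slc11a1, the metal transporter of macrophage phagosomes, separated upward by 0.0010 (1.19 ± 0.28; adjusted p = 0.102), while Mfsd8 and Hgsnat, a transporter and the acetyltransferase of heparan sulfate breakdown, separated downward (-0.46 ± 0.12 with adjusted p = 0.115, and -0.24 ± 0.08 with adjusted p = 0.268). Of 11 measured genes that tag and sort lysosomal enzymes 0 were called, with a median of 0.08. Sorl1, a sorting receptor related to Sort1, was the one whose groups separated (0.52 ± 0.10; adjusted p = 0.0517). Its probe set was dimmer than the median, with mean log2 values of 2.53 in CCl4 and 2.02 in oil livers. Gnptab, the enzyme that starts the mannose phosphate tag, was at 0.52 ± 0.20 (adjusted p = 0.358).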

How the data were processed

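Total RNA of 10 livers was hybridised to Affymetrix whole-transcript arrays, 1 array per liver; the series' design text names an exon array and the study's methods a gene array, and the platform annotation supplied with the values was used. The authors deposited 1 normalized value per probe set, and the deposited values were read as log2 from their range (0.33 to 13.4); per the methods the scanned images were processed with GenePix, and the normalization is not given in the sources used here. They were used as deposited. The labels call the arrays biological replicates, and the limma p-values set the difference between groups against the spread between these arrays, moderated over all probe sets.

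Gene symbols came from the platform annotation: of 23332 probe sets, 14996 had 1 symbol, 1019 several and 7317 none, and all 34 measured genes matched RefSeq. CCl4 and oil arrays were compared by limma 3.58.1 in R 4.3.3 (lmFit and eBayes) on all probe sets, with Benjamini-Hochberg adjustment and a threshold of 0.05, after the scripts were tested on simulated data. The number of arrays limits the precision. Groups were called non-overlapping when every CCl4 array lay beyond every oil array on one side. By rule, values in every array were given for genes called, genes with non-overlapping groups, and Tfeb, Lamp1, Lamp2 and Npc1. Of the related lists, the rule named genes called, up to 5 per list by smallest adjusted p. The uncalled genes named from these lists, such as Mitf, Cd14, Ptprc, Pld3 and Sorl1, fall outside that rule. Gm2a, Mcoln1, Gla, Asah1 and Lipa in every array, and Adgre1, Alb and Dbp, were added after their values were seen. The alternatives were a replicate block, quantile normalization, median centring, testing only probe sets above the median brightness, array weights, a trended and robust prior, a clock covariate, the methods' t-test, means over probe sets, and leaving out each array. The genes and lists were chosen with earlier results of these data known.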

Additional observations from a re-analysis of the deposited data

Results flagged for a closer look

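In 8 of the 68 groups of 5 arrays (34 genes in CCl4 and in oil), 1 array stood apart by Dixon's test at the 95% level, and chance alone marks about 1 group in 20. Of the 8, 6 were CCl4 replicate 4. It was high in Npc1, at a log2 value of 8.71 where the other 4 CCl4 arrays lay between 7.23 and 7.62, and in Gaa, at 6.92 against 6.12 to 6.31. It was low in Naglu, at 5.09 against 5.75 to 5.96, in Lipa, at 9.95 against 10.36 to 10.49, in Fuca1, at 6.78 against 7.10 to 7.21, and in Ids, at 3.999 against 4.30 to 4.38. Oil replicate 2 was high in Gusb, at 5.78 against 5.51 to 5.59, and low in Idua, at 4.19 against 4.41 to 4.50. CCl4 replicate 4 also had a weight of 0.459 when limma weighted the arrays by their fit.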

How the results depend on the processing

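The count of 3 genes called higher was 0 with the replicate number as a block, 0 with the clock covariate, 0 by the methods' t-test after Benjamini-Hochberg adjustment, 5 with only the probe sets above the median brightness tested, 7 by the methods' t-test without adjustment and with a fold above 1.6, and 0 to 5 with 1 array left out; under quantile normalization it was 4 and under the other alternatives 3. Over all probe sets, calls higher numbered 147, and 30 with the block, 45 with the clock covariate, 12 by the adjusted t-test, 192 under quantile normalization, 251 above the median brightness and 30 to 259 with 1 array left out; calls lower numbered 21, and 6, 9, 2, 39, 47 and 5 to 40. Median centring gave 145 and 36. With the replicate block the adjusted p were 0.105 for Galns, 0.109 for Psap and 0.0941 for Laptm5. Same-numbered arrays correlated by 0.05, -0.04, -0.02, 0.16 and 0.03 in their deviations from the group means, and 2 of the 5 CCl4 arrays correlated best with the oil array of their number, so the numbers were not taken to pair the arrays. Even so, replicates 1 and 2 of both groups were the high arrays in Dbp, so the numbers were not without shared structure. The number of genes called lower stayed 0 in every alternative and the median log2 fold change lay between 0.04 and 0.18 with 1 array left out. The 7 genes with non-overlapping groups became 6 under quantile normalization and 6 under median centring. Galns, Psap and Laptm5 kept their direction in all. The cause of these changes was not tested.

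Genes near 0 changed sign. Under quantile normalization Manba went to -0.012, Neu1 to -0.042 and Tfeb to -0.055; under median centring Manba went to -0.0049, Neu1 to -0.043, Tpp1 to -0.022 and Tfeb to -0.029; with the clock covariate Lipa went to 0.024, Lamp2 to 0.041 and Cln3 to 0.074. With 1 array left out the log2 fold change ran from -0.142 to 0.228 in Npc1, -0.16 to 0.0518 in Lipa, -0.000368 to 0.218 in Naglu, -0.00833 to 0.251 in Arsa, -0.0621 to 0.176 in Manba, -0.053 to 0.0533 in Cln3, -0.0266 to 0.0722 in Neu1, -0.0134 to 0.102 in Tpp1, -0.0474 to 0.045 in Lamp2, -0.104 to 0.0188 in Fuca1, -0.10 to 0.025 in Sgsh, -0.0264 to 0.0854 in Tfeb and -0.105 to 0.0154 in Lamp1.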
